A study of Mus musculus with 14 samples.

Results

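The Ikaros zinc finger genes *Ikzf1* (Ikaros), *Ikzf2* (Helios), *Ikzf3* (Aiolos), *Ikzf4* (Eos) and *Ikzf5* (Pegasus) were followed in the spleens and ovaries of mice lacking the mRNA decay factor ZFP36L2. The 5 genes were taken by symbol, each matched 1 gene in both organs, and together they are 5 of the 49315 genes in the spleen count table and 5 of the 18603 genes in the ovary table. Poly(A) RNA was sequenced from 4 wild-type and 4 L2-fKO spleens and from 3 wild-type and 3 L2-fKO ovaries, with 1 animal per library and 14 libraries in all. The L2-fKO mice were *Zfp36l2*-/-;CMV-Cre animals, in which exon 2 between loxP sites had been removed by a Cre transgene under the cytomegalovirus promoter, which is active in all tissues from the early embryo. The wild-type mice were littermate controls with both intact *Zfp36l2* copies, and they carried the CMV-Cre transgene as well. Wild-type spleens 1 and 3 and L2-fKO spleen 3 were from females, the other 5 spleens were from males, and all ovaries were from females. L2-fKO spleen 3 and L2-fKO ovary 1 came from the same animal. The spleens came from pups in their first days after birth, sampled as age-matched pairs, and neither the age of each animal nor which animals formed a pair was given in the sources used here. By their labels the spleen samples are spleen organoid and the knockout is L2-cKO, names that were read here as spleen and L2-fKO, after the study's methods.

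Ikaros family proteins are transcription factors with DNA-binding zinc fingers near the amino terminus, which in most members read a GGGAA core. Through a pair of fingers at the carboxyl terminus the proteins dimerise with one another. They recruit chromatin remodelling complexes such as NuRD and are best known for directing lymphocyte development: Ikaros in all lymphoid lineages, Aiolos mainly in B cells, and Helios and Eos in regulatory T cells. Pegasus is the most divergent and the most broadly expressed member. ZFP36L2 binds AU-rich elements in the 3′ untranslated region (3′UTR) of mRNAs and promotes their degradation, with UAUUUAU as the 7-base core.

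The longest annotated 3′UTRs of 3 members held UAUUUAU, and 2 members held none. *Ikzf2* had 3 copies in 7554 nt, *Ikzf5* had 3 in 2985 nt and *Ikzf4* had 1 in 3205 nt, whereas *Ikzf1* (3345 nt) and *Ikzf3* (2084 nt) had 0. Among 14227 spleen-tested genes with an annotated 3′UTR, 29.5% held at least 1 copy on the mRNA strand and 3.88% held at least 3. The share depended on length, at 45.3% for 3′UTRs of 2000 to 4000 nt and 65.6% for those of 4000 nt or more. The shorter AUUUA, which also lies inside each UAUUUAU, occurred 23 times in *Ikzf2*, 16 times in *Ikzf5*, 4 times in *Ikzf1*, 3 times in *Ikzf4* and 2 times in *Ikzf3*. The 7 sites are shown because UAUUUAU is the element through which ZFP36L2 acts on mRNA. Each is given as DNA, 5′ to 3′ along the mRNA, with 11 bases on each side from GENCODE release 21 on GRCm38, and the capitals mark the 7-base core.

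*Ikzf4*, chr10:128633542-128633570, minus strand, 489 nt into the 3′UTR: atcctcaccctTATTTATctgacccttca
*Ikzf5*, chr7:131391440-131391468, minus strand, 180 nt into the 3′UTR: ctggtcagggtTATTTATgcattagatag
*Ikzf5*, chr7:131390939-131390967, minus strand, 681 nt into the 3′UTR: atttatatatgTATTTATatattttgagt
*Ikzf5*, chr7:131389275-131389303, minus strand, 2345 nt into the 3′UTR: tgaccatgcacTATTTATagtactttgcc
*Ikzf2*, chr1:69537546-69537574, minus strand, 1205 nt into the 3′UTR: tttactagggcTATTTATtccactatttc
*Ikzf2*, chr1:69536564-69536592, minus strand, 2187 nt into the 3′UTR: agtgaaaaggaTATTTATttctgaatgag
*Ikzf2*, chr1:69532195-69532223, minus strand, 6556 nt into the 3′UTR: tgtattattcaTATTTATatgtagtgtgt

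These are matches of letters, and binding was not measured in the files analysed here. The study lists probes of the 3 *Ikzf2* elements among those bound by ZFP36L2 in gel-shift assays. Promoter sequences from RefSeq (GRCm38.p6) were at hand for 2 members. On both strands together, the 300-base promoter of *Ikzf5* held 1 GGGAA core and the promoters at both starts of *Ikzf1* held 0 and 2, while 62.7% of 32851 promoters held at least 1 and 27.1% at least 2.

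The spleen libraries held 39138010 to 45167464 reads counted on genes, and the reads recovered from the ovary values summed to 31052510 to 44270070. *Zfp36l2*, the deleted gene, fell in every L2-fKO library, to 5.91% of the wild-type mean in the spleen and to 19.1% in the ovary. Over all genes the median log2 fold change was -0.02 in the spleen and -0.0042 in the ovary. The ovaries carried oocyte and granulosa cell markers, with 8 oocyte genes summing to 135341 to 187992 normalized counts per library, whereas the same genes summed to 11.9 to 39.2 in the spleens. The spleens carried erythroid, neutrophil and B cell markers. Wild-type spleen 1 and L2-fKO spleen 4 stood apart from their groups in the same direction, with a correlation across genes of 0.55 between their deviations from the group means. Fold changes of the members in the spleen, their correlations and the counts of the marker lists are therefore also given without these 2 libraries, a choice made after seeing the data.

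In the spleen *Ikzf1* was the predominant member. Levels are given as normalized counts, which are counts divided by the library size after edgeR's TMM scaling and multiplied by the mean of those sizes, and levels of different genes are compared only per kilobase of exon. *Ikzf1* lay at 1901 to 2680 normalized counts per kilobase in wild-type spleens, above 92.2% to 95.2% of the genes tested, and made up 87.2% ± 3.73 (SD, n = 4) of the family sum. It made up 87.1% ± 2.09 (SD, n = 4) in L2-fKO. *Ikzf3* and *Ikzf5* followed, at 175 ± 134 and 132 ± 18.7 normalized counts per kilobase (SD, n = 4) in wild type. Their ranges overlapped, and *Ikzf3* exceeded *Ikzf5* in 1 of 4 libraries of each genotype, wild-type spleen 1 and L2-fKO spleen 4. *Ikzf2* at 20.7 ± 5.80 and *Ikzf4* at 9.37 ± 3.23 normalized counts per kilobase (SD, n = 4) were the lowest in wild type, and their ranges did not overlap. In L2-fKO that order changed: *Ikzf4* stood at 27.2 ± 10.6 and *Ikzf2* at 14.7 ± 6.12 normalized counts per kilobase, and *Ikzf4* was above *Ikzf2* in 3 of 4 libraries.

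**Figure D1:**
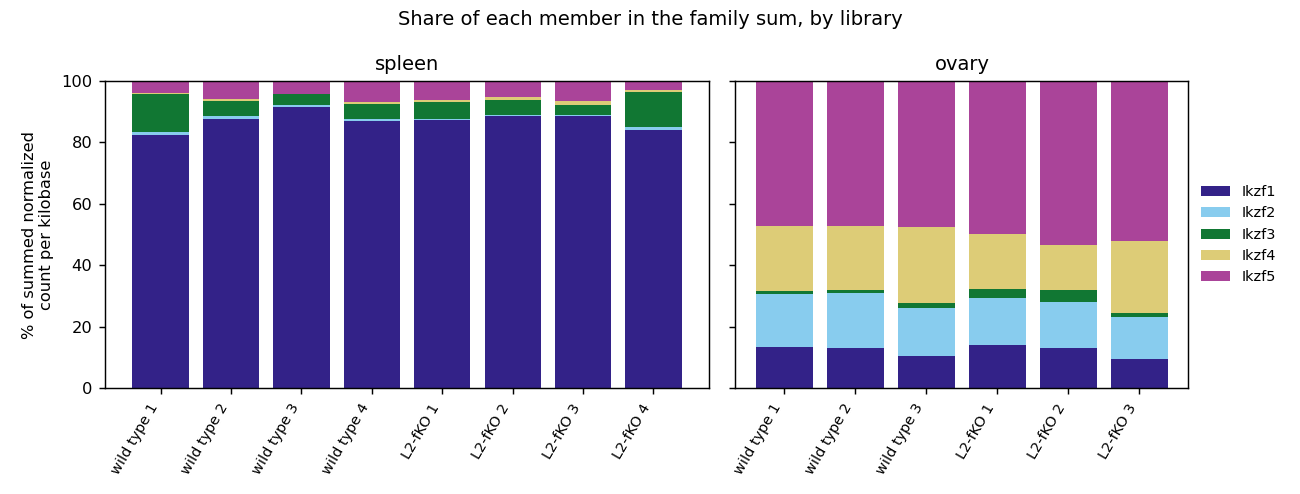
Share of each member in the summed normalized count per kilobase of the 5 members, in percent, with 1 bar per library for the spleen (left) and the ovary (right). *Ikzf1* takes 82.5% to 91.6% of the bar in every spleen, whereas *Ikzf5* takes 47.1% to 53.5% in the ovaries.

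*Ikzf4* was the member whose mRNA rose in the L2-fKO spleen. Eos is a partner of FOXP3 in gene repression in regulatory T cells. The gene lies on the minus strand of chromosome 10 from 128630843 to 128645991 (GRCm38) and has 5995 nt of exon. Normalized counts were 70.7, 49.5, 31.8 and 72.8 in wild-type spleens 1 to 4 and 157, 155, 248 and 93.8 in L2-fKO spleens 1 to 4. Every L2-fKO spleen was above every wild-type spleen, and the lowest of them was L2-fKO spleen 4, which stood apart from its group in many genes. The means were 56.2 ± 19.4 in wild type and 163 ± 63.4 in L2-fKO (SD, n = 4 each), a fitted increase of 2.90-fold (log2 fold change 1.53, SE 0.35, Benjamini-Hochberg adjusted p = 0.0182 over 16911 genes, from the quasi-likelihood test of edgeR). A gene was called at an adjusted p below 0.05 with an absolute log2 fold change above 1. By these limits 1 of the 5 members was called higher and 0 lower, where 2.9% and 3.11% of all genes tested were called higher and lower. At an unadjusted p below 0.05, *Ikzf4* was likewise the only member, and DESeq2 also called it and no other member. An exact two-sided permutation test of the log2 values of *Ikzf4* gave p = 0.0286, the smallest that 4 against 4 libraries allow. Any gene whose groups do not overlap reaches that value. The share of all genes without overlap is not given here, so the lack of overlap is a description.

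These values rested on few reads, 32 to 75 per wild-type spleen and 110 to 228 per L2-fKO spleen, and on few animals. Without wild-type spleen 2 the increase was 1.48 on the log2 scale with an adjusted p of 0.0612 (edgeR), and in the male spleens only, 2 against 3, it was 1.14 with an adjusted p of 0.0573. Without wild-type spleen 1 and L2-fKO spleen 4 it was 1.86 with an adjusted p of 0.00834 (edgeR). By sex, the 3 male L2-fKO spleens lay at 93.8 to 157 normalized counts and the 2 male wild-type spleens at 49.5 to 72.8, while the 1 female L2-fKO spleen, at 248, was the highest of all.

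A long intergenic RNA gene, Gm26876, starts inside the *Ikzf4* locus at its 5′ end and runs in the opposite direction, on the plus strand of chromosome 10 from 128645884 to 128649811, with 37 exonic bases shared. It was singled out after its values were seen. Its reads were 1, 0, 1 and 0 in wild-type spleens 1 to 4 and 25, 18, 16 and 5 in L2-fKO spleens 1 to 4. These were 2 reads over all wild-type spleens and 64 over all L2-fKO spleens. Gm26876 did not pass the filter on low counts and was not tested. How many genes of such low counts differ as much is not given here, so these reads are a description. The reads had been counted by strand.

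*Ikzf2* was lower on average in the L2-fKO spleen but did not pass the test with all libraries. Helios marks regulatory T cells and some other T cells. The gene lies on the minus strand of chromosome 1 from 69531214 to 69687245. Wild-type spleens 1 to 4 had 339.5, 196, 202 and 222 normalized counts, and L2-fKO spleens 1 to 4 had 137, 143, 125 and 276. L2-fKO spleens 1, 2 and 3 were below every wild-type spleen, and L2-fKO spleen 4 was above 3 of the 4. The log2 fold change was -0.49 with an SE of 0.29 and an adjusted p of 0.30 (edgeR). Without L2-fKO spleen 4 it was -0.83 with an adjusted p of 0.0335, and without wild-type spleen 1 it was -0.28 with an adjusted p of 0.572 (edgeR). With both left out it was -0.62 with an adjusted p of 0.0307, within the limit on fold change. Over the alternatives other than leaving out 1 library, the log2 fold change lay between -0.84 and -0.17. Among the males the groups overlapped, with the 2 wild-type spleens at 196 to 222 normalized counts and the 3 L2-fKO spleens at 137 to 276. The study placed *Ikzf2* among the unchanged genes by RNA-seq and reported a modest but significant decrease in L2-fKO spleens by RT-qPCR.

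*Ikzf1* did not differ between genotypes beyond the spread of the animals. The gene lies on the plus strand of chromosome 11 from 11685003 to 11772926. Wild-type spleens 1 to 4 had 14655, 10981, 15483 and 11429 normalized counts, and L2-fKO spleens 1 to 4 had 13959, 14443, 14914 and 13471. All L2-fKO values lay within the wild-type range, in which the 2 female spleens were high and the 2 male spleens low. The log2 fold change was 0.11 (SE 0.14, adjusted p = 0.623 by edgeR), and without wild-type spleen 1 and L2-fKO spleen 4 it was 0.19 (adjusted p = 0.376). Among the males, the 3 L2-fKO spleens (13471 to 14443) were above the 2 wild-type spleens (10981 to 11429), with a log2 fold change of 0.32 (SE 0.13, adjusted p = 0.132 by edgeR). The 1 female L2-fKO spleen, at 14914, lay between the 2 female wild-type spleens.

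*Ikzf3*, on the minus strand of chromosome 11 from 98464902 to 98546031, varied more between animals than between genotypes. Normalized counts were 3292, 979.9, 899 and 953 in wild-type spleens 1 to 4 and 1270.4, 1221, 851 and 2811 in L2-fKO spleens 1 to 4. One library of each genotype, wild-type spleen 1 and L2-fKO spleen 4, was far above the others, and the remaining 6 lay between 851 and 1270.4. The means were 1531 ± 1175 and 1538 ± 869 (SD, n = 4 each), and the log2 fold change was 0.01 (SE 0.49, adjusted p = 0.995 by edgeR). It was 0.71 without wild-type spleen 1, -0.46 without L2-fKO spleen 4 and 0.24 without both, with adjusted p-values of 0.232, 0.515 and 0.321 (edgeR). The direction of *Ikzf3* in the spleen thus turned with the libraries included.

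*Ikzf5* lies on the minus strand of chromosome 7 from 131388652 to 131410521. It had 683, 739, 682 and 909 normalized counts in wild-type spleens 1 to 4 and 954, 845, 1073 and 467 in L2-fKO spleens 1 to 4. L2-fKO spleens 1 and 3 were above the wild-type range and L2-fKO spleen 4 was below it. The log2 fold change was 0.15 (SE 0.23, adjusted p = 0.711 by edgeR). It was 0.35 without L2-fKO spleen 4 (SE 0.14, adjusted p = 0.117), 0.30 without that library and wild-type spleen 1 (adjusted p = 0.185) and 0.0034 without L2-fKO spleen 3 (adjusted p = 0.994), all by edgeR. Without wild-type spleen 4 it was 0.25, without L2-fKO spleen 1 it was 0.077, and in the males only it was -0.13, with adjusted p-values of 0.604, 0.889 and 0.794 (edgeR). *Ikzf5* shares 4652 exonic bases with *Pstk* on the opposite strand, so its level depends on the counting by strand.

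**Figure D2:**
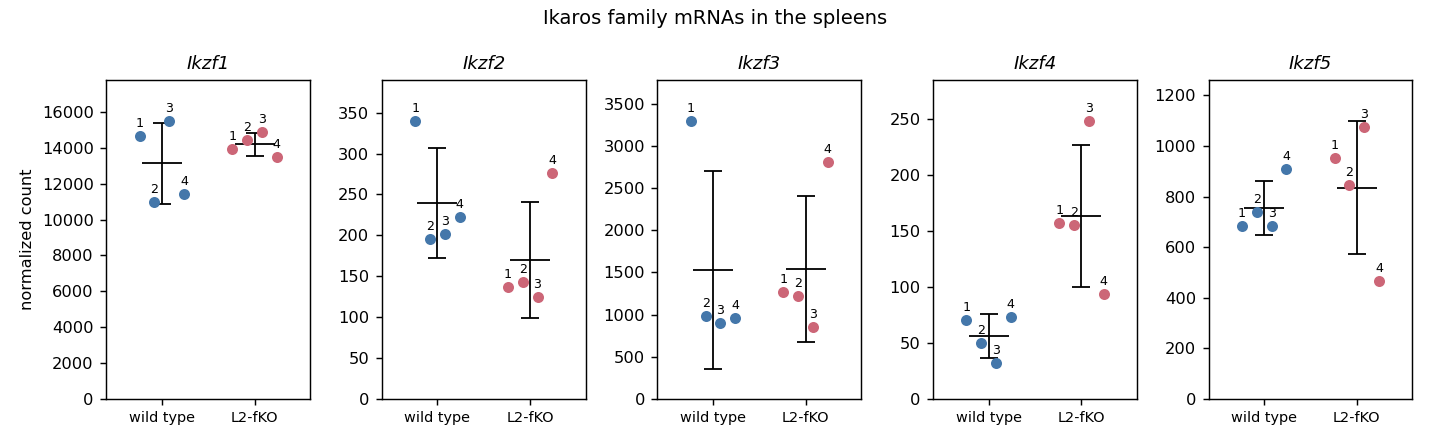
Normalized counts of the 5 members in the wild-type and L2-fKO spleens, with 1 point per library, its replicate number beside it, and the mean ± SD in black. *Ikzf4* is the member whose groups do not overlap, and wild-type spleen 1 and L2-fKO spleen 4 are the highest of their groups for *Ikzf2* and *Ikzf3*.

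The levels of the members in the spleens were set beside sums of cell type markers. In whole organs, fewer cells of a type and less RNA per cell cannot be told apart. *Ikzf3* and the summed counts of 8 B cell markers had a Pearson correlation of 0.84 on the log2 scale over the 8 spleens. The B cell sum was 70027 in wild-type spleen 1 against 13938 to 32394 in the other wild-type spleens, and 39168 in L2-fKO spleen 4 against 14695 to 24477 in the other L2-fKO spleens. Without these 2 spleens the correlation was 0.43 over 6 spleens, so it rested largely on them. *Ikzf3* had similar correlations with the regulatory T cell (0.82), pan-leukocyte (0.74) and T cell sums (0.73), at 0.22, 0.12 and 0.35 without these 2 spleens. Even the oocyte sum, only 11.9 to 39.2 in the spleens, gave 0.82, and -0.04 without them. The high value was thus not particular to the B cell sum. *Ikzf2* followed the sum of 6 NK cell markers (0.96), which was 1463 in wild-type spleen 1 and 1477 in L2-fKO spleen 4 against 326 to 986 in the other 6 spleens, and without these 2 spleens the correlation was 0.93. It also followed the sums of 5 pan-leukocyte (0.91) and 5 stem and progenitor markers (0.84) and ran against that of 7 erythroid markers (-0.83), at 0.77, 0.98 and -0.89 without the 2 spleens. Its correlations with the megakaryocyte and neutrophil sums were 0.54 and 0.57, and 0.97 and 0.90 without the 2 spleens. Those with the B, regulatory T and T cell sums were 0.78, 0.71 and 0.66, and 0.34, 0.19 and 0.24 without the 2 spleens. The oocyte sum, of few counts in the spleens, gave 0.92 and 0.86, so a high value does not by itself mark a cell type. In those 6 spleens *Ikzf2* and the NK cell, progenitor and erythroid sums did not overlap between genotypes, so the genotype split enters these values.

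*Ikzf4* ran against the sums of 7 neutrophil (-0.91), 5 stem and progenitor (-0.84) and 6 megakaryocyte and platelet markers (-0.81), and followed those of 7 erythroid (0.82) and 6 plasma cell markers (0.79). Without wild-type spleen 1 and L2-fKO spleen 4 these 5 values were -0.93, -0.87, -0.88, 0.93 and 0.93. Its correlation with the sum of 5 regulatory T cell markers was -0.02, and 0.083 without the 2 spleens. With the stromal and endothelial sums it was 0.60 and 0.52, and 0.92 and 0.87 without the 2 spleens. *Ikzf5* followed the erythroid sum (0.82, and 0.85 without them) and ran against the NK cell sum (-0.79, and -0.62 without them). The correlations of *Ikzf1* with the sums of blood and immune cell markers lay between -0.50 for T cells and 0.42 for erythroid cells, and without the 2 spleens those with T, regulatory T and B cells were -0.89, -0.91 and -0.89. All of these correlations share the libraries. The neutrophil, megakaryocyte, progenitor, plasma cell, stromal and endothelial sums did not overlap between genotypes, as was the case for *Ikzf4*.

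**Figure D3:**
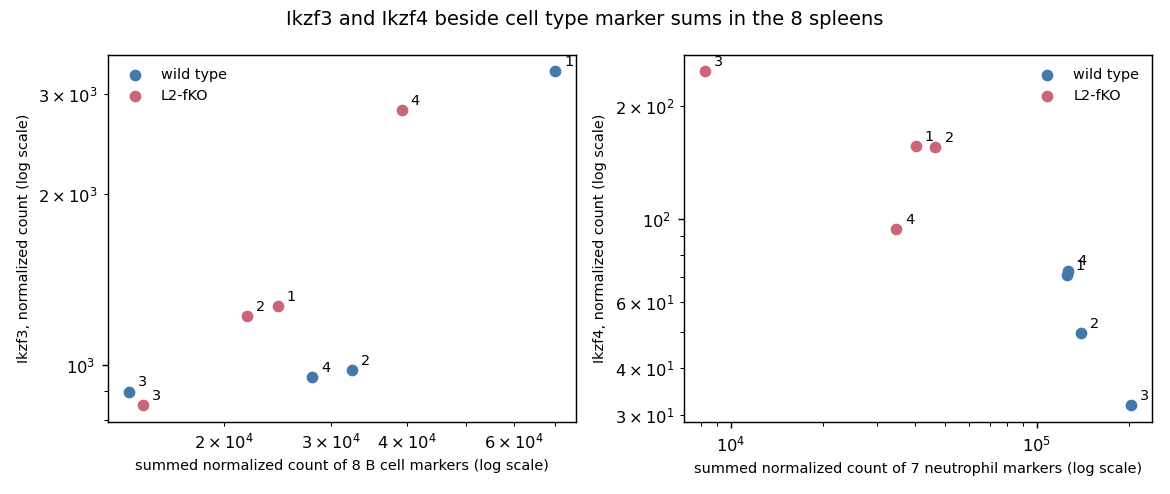
Normalized counts of *Ikzf3* against the summed normalized counts of 8 B cell markers (left) and of *Ikzf4* against those of 7 neutrophil markers (right), with 1 point per spleen, the replicate number beside it, and log scales on all axes. *Ikzf3* and the B cell sum are both highest in wild-type spleen 1 and second in L2-fKO spleen 4, and *Ikzf4* is high where the neutrophil sum is low, with the genotypes apart on both axes.

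Cell type markers differed between genotypes beside the change of *Ikzf4*. Among all genes tested, 6.89% were higher and 6.51% lower at an adjusted p below 0.05. All 7 neutrophil markers fell (median log2 fold change -2.11), with sums of 125016 to 203006 in wild type and 8225 to 46582 in L2-fKO. All 6 megakaryocyte and platelet markers fell (median -5.60), with sums of 21581 to 45115 and 1057 to 1323. Of 6 plasma cell markers 4 rose (*Sdc1*, *Jchain*, *Xbp1* and *Tnfrsf17*; median of all 6, 0.82), with sums of 5220 to 8290 in wild type and 11422 to 15529 in L2-fKO. Of 6 macrophage markers *Adgre1* and *Mertk* rose, and the sums were 27379 to 45741 in wild type and 44692 to 80658 in L2-fKO. Of 5 stem and progenitor markers *Kit* and *Hoxa9* fell and *Mecom* rose, with sums of 4923 to 5529 and 3049 to 4740. *Klrb1c* fell among 6 NK cell markers, *Cdh5* rose among 4 endothelial and *Pdgfra* among 4 stromal markers. Of 5 pancreatic acinar markers 4 fell, and their sum was 1629 to 18424 in wild type and 1248 to 2162 in L2-fKO. None of 8 T cell, 5 regulatory T cell, 8 B cell, 7 erythroid and 5 pan-leukocyte markers passed the test, with medians of -0.23, -0.11, -0.46, 0.05 and -0.29. The erythroid sum was 331319 to 406297 in wild type, 511301 to 682657 in L2-fKO spleens 1, 2 and 3 and 324154 in L2-fKO spleen 4. The NK cell sum was 618 to 1463 in wild type, 326 to 373 in L2-fKO spleens 1, 2 and 3 and 1477 in L2-fKO spleen 4. The 2 of highest level in each list had log2 fold changes of -0.0012 (*Lck*) and -0.30 (*Cd2*) for T cells, -0.23 (*Il2ra*) and -0.53 (*Tnfrsf18*) for regulatory T cells, -0.64 (*Cd79a*) and -0.39 (*Ms4a1*) for B cells, 0.67 (*Slc4a1*) and 0.39 (*Tfrc*) for erythroid cells, and -0.74 (*Coro1a*) and -0.21 (*Laptm5*) for leukocytes. *Foxp3*, added for being the defining factor of regulatory T cells, had 91.6 ± 29.0 normalized counts in wild type and 134 ± 68.7 in L2-fKO (SD, n = 4 each). Its ranges, 51.7 to 121 in wild type and 89.1 to 236 in L2-fKO, overlapped, and it did not pass the test (log2 fold change 0.56, adjusted p = 0.341 by edgeR). No defining marker of these lists was at 0 in all libraries of a genotype. Without wild-type spleen 1 and L2-fKO spleen 4, 9.23% of all genes tested were higher and 8.71% lower at an adjusted p below 0.05. In that fit 4 of the 6 NK cell markers fell (*Ncr1*, *Klrb1c*, *Gzma* and *Klrk1*; median log2 fold change -1.28), *Tfrc* and *Slc4a1* of the 7 erythroid markers rose (median 0.20), *Coro1a* fell among the pan-leukocyte markers and *Csf1r* rose beside *Adgre1* and *Mertk*. The counts of the other marker lists were as with all libraries. The part of these differences in the levels of *Ikzf4*, *Ikzf2* and *Ikzf5* was not tested.

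Of the partners through which Ikaros proteins act, 1 passed the test in the spleen. Among all genes tested there, 6.89% were higher and 6.51% lower at an adjusted p below 0.05. Of 17 NuRD and co-repressor genes *Ctbp2* rose and none fell, and the median log2 fold change was -0.06. *Ctbp2*, a co-repressor, went from 930 ± 244 to 1643 ± 39.6 normalized counts (SD, n = 4 each; log2 fold change 0.82, adjusted p = 0.011 by edgeR). None of 4 SWI/SNF genes passed the test (median -0.07), among them the ATPase *Smarca4* at 0.02 and *Smarcc1* at -0.11. None of 5 genes of the cereblon ubiquitin ligase, through which lenalidomide-type drugs lead to the degradation of Ikaros and Aiolos, passed it (median 0.09), with *Ddb1* at -0.03 and *Cul4a* at 0.09. Without wild-type spleen 1 and L2-fKO spleen 4, *Chd3* and *Gatad2a* of NuRD rose beside *Ctbp2*, and again no gene of the other 2 lists passed.

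Of the genes described as targets of Ikaros 1 passed the test, and of the lymphoid transcription factors that act beside it 3 did. Among all genes tested, 6.89% were higher and 6.51% lower at an adjusted p below 0.05. Of 20 such targets 18 were tested. *Notch3*, a Notch receptor gene, rose with a log2 fold change of 0.86 (adjusted p = 0.0348 by edgeR), and no target fell. The median of the 18 was -0.19. Of 21 lymphoid transcription factors 20 were tested, and *Gfi1* (-1.16), *Myb* (-1.06) and *Runx1* (-0.41) fell while none rose, with a median of -0.26. Without wild-type spleen 1 and L2-fKO spleen 4, *Igll1* rose beside *Notch3*, and *Spi1* fell beside the other 3 factors. *Gfi1* acts in neutrophil and lymphoid development, *Myb* in progenitors and *Runx1* across blood lineages.

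The genes most like each member over the 8 spleens, by Pearson correlation of log2 CPM (counts scaled to library size) among 10958 genes, were found as a description. They were *Pak4* (0.99), *Ctsf* (0.98) and *Ptger3* (0.98) for *Ikzf4*. These had an adjusted p below 0.05 between genotypes, at log2 fold changes of 0.82, 1.14 and 1.42 (edgeR). For *Ikzf3* they were *Itpr3* (0.99), 9930111J21Rik2 (0.99) and *Pik3ap1* (0.99). They were *Slc37a1*, *Flii* and *Ulk3* for *Ikzf2* (0.97 to 0.98), *Eps8l1*, *N4bp2* and *Rapgef6* for *Ikzf1* (0.97 to 0.99), and *Cdkn3* and *Clp1* for *Ikzf5* (0.99 each). None of these 8 genes had an adjusted p below 0.05 between genotypes, nor did the 3 of *Ikzf3*. All were picked by likeness to a member in the same spleens, so these tests largely restate those of the members. Without wild-type spleen 1 and L2-fKO spleen 4 the correlations of the genes of *Ikzf3* were 0.82 to 0.95 and those of the other genes named here 0.918 to 0.995. Between members, the correlation of *Ikzf2* and *Ikzf3* was 0.74 over the 8 spleens and -0.35 without these 2, so that its sign turned on them. *Ikzf2* and *Ikzf5* varied in opposite directions in both cases (-0.74 and -0.66). *Ikzf4* ran against *Ikzf2* (-0.64 and -0.91) and followed *Ikzf5* (0.55 and 0.89).

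In the ovary the order of the members was different, with *Ikzf5* the highest. The ovary table was normalized separately by the authors, so levels are compared within the ovary only. In wild-type ovaries *Ikzf5* stood at 55.1 ± 3.64 normalized counts per kilobase, *Ikzf4* at 26.01 ± 3.79, *Ikzf2* at 19.7 ± 0.89, *Ikzf1* at 14.2 ± 1.55 and *Ikzf3* at 1.45 ± 0.65 (SD, n = 3 each), and the ranges of neighbours in this order did not overlap. In L2-fKO ovaries the order was the same, but the ranges of *Ikzf4* and *Ikzf2* and of *Ikzf2* and *Ikzf1* overlapped. *Ikzf5* made up 47.3% ± 0.17 of the family sum in wild type and 51.8% ± 1.86 in L2-fKO (SD, n = 3 each). As in the spleen, the level of *Ikzf5* depends on counting by strand, which was described for the spleen. *Pstk*, with 4652 exonic bases shared on the opposite strand, had 793 to 1266 reads in wild-type and 684 to 1033 in L2-fKO ovaries. *Ikzf5* had 265 to 361 and 285 to 416 reads.

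No member passed the test between genotypes in the ovary. By limma on log2(normalized count + 1) over 18504 genes, 0 of the 5 members were called, where 0.73% of genes were called higher and 0.227% lower. No member had an unadjusted p below 0.05, and edgeR and DESeq2 on the recovered reads called none either. *Ikzf4* had 151, 136 and 181 normalized counts in wild-type ovaries 1 to 3 and 140.4, 114 and 154 in L2-fKO ovaries 1 to 3. These ranges overlapped, and the log2 fold change was -0.20 (SE 0.19, adjusted p = 0.645 by limma). *Ikzf5* had 322, 292 and 331 in wild type and 372, 399 and 325 in L2-fKO, with a log2 fold change of 0.21 (SE 0.13, adjusted p = 0.458 by limma). L2-fKO ovaries 1 and 2 were above the wild-type range for *Ikzf5* and for *Ikzf3*.

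*Ikzf3* was near the floor in the ovary, with 8 to 21 reads per wild-type library and 11 to 43 per L2-fKO library. Its normalized counts were 9.73, 9.19 and 19.3 in wild type and 31.3, 44.2 and 12.5 in L2-fKO. The difference of 1.05 on the log2(value + 1) scale (SE 0.52, adjusted p = 0.36 by limma) was within the spread between animals. In the same libraries the sum of 8 B cell markers, 7 of which are in the ovary table, was 106 to 122 in wild type and 136 to 248 in L2-fKO, highest in L2-fKO ovary 2, where *Ikzf3* was also highest. The part of B cells in the *Ikzf3* level was not tested. *Ikzf1* had 91.3, 81.1 and 73.4 in wild type and 107, 99.7 and 59.2 in L2-fKO (log2 fold change 0.07), and *Ikzf2* had 241, 226 and 221 and 232, 223 and 175 (log2 fold change -0.14). For both genes the L2-fKO values were more widely spread than the wild-type values. An exact permutation test of 3 against 3 ovaries cannot give a two-sided p below 0.1.

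**Figure D4:**
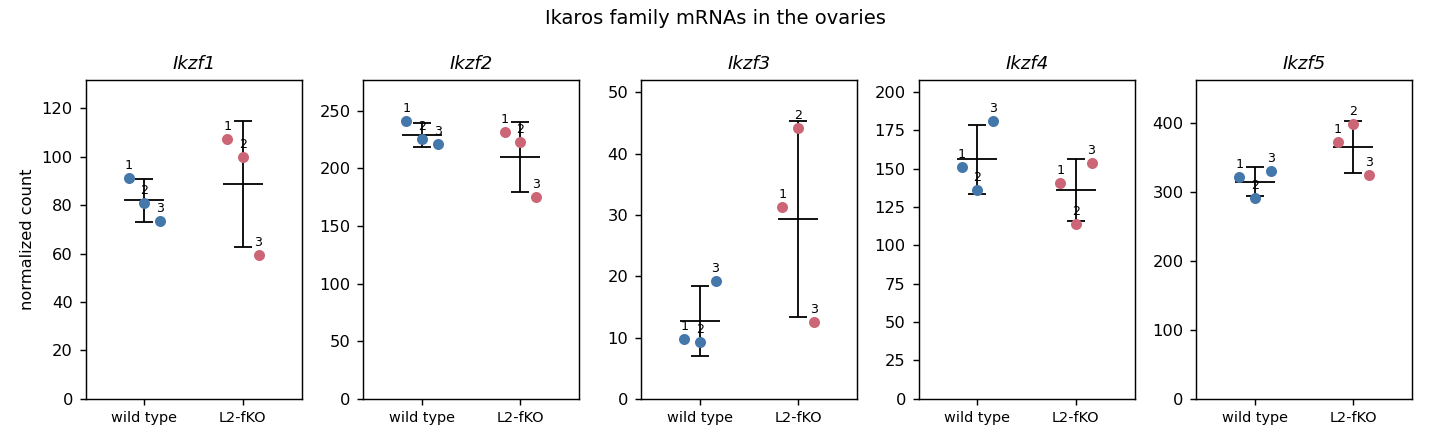
Normalized counts of the 5 members in the wild-type and L2-fKO ovaries, with 1 point per library, its replicate number beside it, and the mean ± SD in black. The groups overlap for all 5 members, and *Ikzf3* does not exceed 44.2 in any library.

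Few genes of the partner and target lists passed the test in the ovary, where 1.23% of all genes were higher and 0.351% lower at an adjusted p below 0.05. None of the 17 NuRD and co-repressor, 4 SWI/SNF and 5 cereblon ligase genes passed the test, with medians of -0.05, -0.08 and 0.02, and none of the 20 lymphoid factors tested did (median 0.08). The 2 of highest level in each were *Rbbp7* (-0.21) and *Chd4* (-0.00067), *Smarcc1* (-0.01) and *Smarca4* (-0.05), *Ddb1* (0.02) and *Cul4a* (0.18), and *Tcf3* (0.0012) and *Tcf12* (0.16). Of 11 Ikaros targets tested *Notch3* rose (log2 fold change 0.59, adjusted p = 0.0323 by limma) and *Cd4* rose from 54.5 ± 7.13 to 245 ± 64.4 (SD, n = 3 each; log2 fold change 2.12, adjusted p = 0.00933 by limma). *Cd4* encodes a T cell co-receptor that macrophages and dendritic cells can also carry, and the median of the 11 was 0.14. The 2 T cell markers tested, *Lck* and *Cd3g*, had log2 fold changes of 0.01 and 0.73 and did not pass the test. Of the marker lists, *Cdh5* among 4 endothelial markers rose (0.38), and no other marker of blood, immune, oocyte, granulosa, stromal or acinar cells passed the test.

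The genotype difference of *Ikzf4* differed between the organs when both were put in 1 model. The interaction term, the spleen difference minus the ovary difference, was 1.76 on the log2 scale (SE 0.46, adjusted p = 0.0381 by edgeR over 18580 genes). Of the 5 members it was the only one past the limits, where 1.39% of genes were called higher and 2% lower. The terms of *Ikzf1*, *Ikzf2*, *Ikzf3* and *Ikzf5* were 0.01, -0.34, -1.17 and -0.04, with adjusted p-values of 0.996, 0.66, 0.512 and 0.974 (edgeR). The call of *Ikzf4* was held when wild-type spleen 1, 3 or 4 was left out, and likewise L2-fKO spleen 4. It was lost when any 1 of the other libraries was left out, namely wild-type spleen 2, the L2-fKO spleens 1, 2 and 3 and the 6 ovaries, where the term was 1.47 to 1.85 and the adjusted p 0.0584 to 0.0984. In the female libraries only, with 1 L2-fKO spleen, which is assumed to vary like the other groups, the term was 2.53 with an adjusted p of 0.0364 (edgeR).

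**Figure D5:**
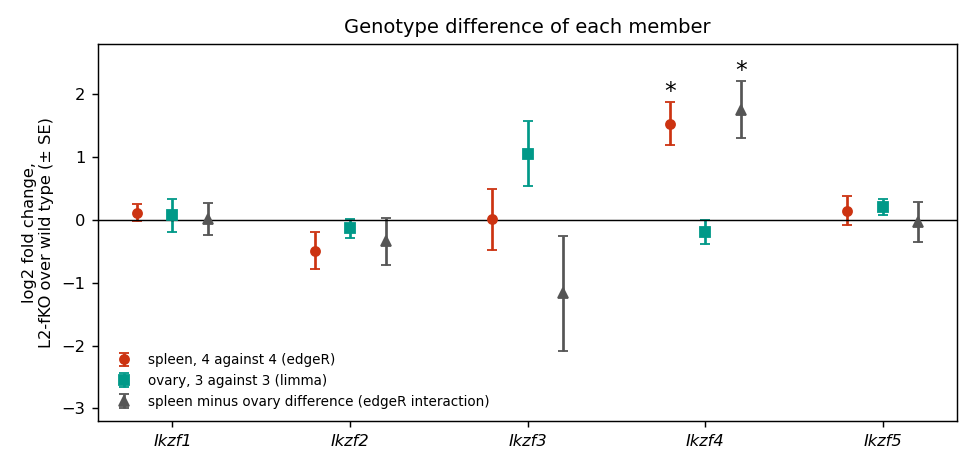
Log2 fold change of L2-fKO over wild type ± SE for each member in the spleen (circles), in the ovary (squares) and for the difference between these (triangles), with an asterisk where the adjusted p is below 0.05. *Ikzf4* is the only member with asterisks, at 1.53 in the spleen and 1.76 for the interaction, beside -0.20 in the ovary.

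Among the members that hold UAUUUAU, only *Ikzf4* passed the test in the spleen, and the part of the 7-mer in these levels was not tested. *Ikzf4*, with 1 copy, was at 1.53. *Ikzf2* and *Ikzf5*, with 3 copies each, were at -0.49 and 0.15 (adjusted p = 0.30 and 0.711 by edgeR). *Ikzf1* and *Ikzf3*, with none, were at 0.11 and 0.01. In the ovary the members with the 7-mer were at -0.20, -0.14 and 0.21 for *Ikzf4*, *Ikzf2* and *Ikzf5*.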

How the data were processed

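For the spleen the authors used Trimmomatic 0.36 for trimming, STAR 2.5.2b for mapping to GRCm38, and featureCounts (Subread 1.5.2) for strand-specific exon counts of uniquely mapped reads. The deposited spleen values are these whole-number counts. For the ovary the authors deposited normalized signal values, which are counts divided by 1 size factor per library. All of these values (100%, within 0.001) were whole multiples of the value of 1 read, so reads were recovered. A table of the authors' normalized signal values for the spleen repeats the counts and was not used for tests. Columns of fold changes and p-values of the authors' own comparisons were not used.

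Spleen counts were tested with edgeR 4.0.16 (R 4.3.3; TMM, quasi-likelihood) on genes reaching 10 counts in 4 or more libraries. Ovary values were tested with limma 3.58.1 (trend) on log2(value + 1) for genes reaching 10 in 3 or more libraries. The interaction was fitted with edgeR on the spleen counts and recovered ovary reads of genes reaching 10 counts in 3 or more libraries, and it ignores that 1 animal gave both organs. DESeq2 1.42.0, other filters, pseudocounts, sex, the replicate block and leaving out each library were alternatives. Leaving out wild-type spleen 1 and L2-fKO spleen 4 together, for fits, lists and correlations, was chosen after seeing the data. On simulated counts with 200 changed genes the tests were checked before use. The members, gene lists and marker lists were chosen with earlier results of these data known. The named genes are the members, the deleted gene, the 3 genes most correlated with each member (mean of at least 5 CPM; 1 of them is not reported here), and list genes with an adjusted p below 0.05, or else the 2 of highest level. *Foxp3*, Gm26876 and *Pstk* were named in addition. For the other marker lists of the ovary, counts only are given. Standard errors of edgeR fold changes were derived from the F statistic. Gene models were from GENCODE mouse release 21, and the longest 3′UTR was taken without the stop codon. Correlations and figures used Python 3.11.15, numpy 2.4.6, pandas 2.3.3, scipy 1.17.1 and matplotlib 3.10.9. The number 3 is given to 2 wild-type spleens in the labels, of which the male is called wild-type spleen 4 here. Protein sequences and the promoters of *Ikzf2*, *Ikzf3* and *Ikzf4* were not analysed here.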

Additional observations from a re-analysis of the deposited data

Results flagged for a closer look

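The genotype difference of *Ikzf4* differed between spleen and ovary, with an interaction term of 1.76 on the log2 scale (adjusted p = 0.0381 by edgeR). *Ikzf4* had 31.8 to 72.8 normalized counts in wild-type spleens and 93.8 to 248 in L2-fKO spleens. In the ovary, 1 of 3 L2-fKO libraries was below the wild-type range. The adjusted p was above 0.05 when any 1 of 10 of the 14 libraries was left out.

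*Ikzf3* in wild-type spleen 1 (3292 normalized counts) and *Ikzf2* in L2-fKO spleen 4 (276 normalized counts) lay far from the other 3 libraries of their groups by Dixon's criterion for groups of 4 samples. Over the 5 members in 2 groups of spleens, chance flags about 1 in 20 groups.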

How the results depend on the processing

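*Ikzf4* in the spleen stayed higher in L2-fKO under every alternative run. Its log2 fold change was 1.26 to 1.73 with each library left out, and of the alternatives run, leaving out wild-type spleen 2 and using the males alone (1.14) lost the call. The spleen direction of *Ikzf3* turned with the replicate block (-0.36) and lay between -0.46 and 0.71 with each library left out, and that of *Ikzf5* turned in the male libraries only (-0.13). In the ovary *Ikzf1* lay between -0.085 and 0.34 with each library left out. The genes called in the ovary numbered 135 higher and 42 lower, against 286 and 121 with DESeq2 on recovered reads, 81 lower with the replicate block, and 28 to 127 higher and 4 to 72 lower with each library left out. For the interaction *Ikzf4* lay between 1.47 and 1.93, *Ikzf1* between -0.20 and 0.18 and *Ikzf5* between -0.19 and 0.14 with each library left out, and the genes called numbered 159 to 351 higher and 234 to 577 lower. In the female libraries *Ikzf1* was at -0.077 and *Ikzf5* at 0.51, and with at least 10 counts in all libraries *Ikzf1* was at -0.017. The causes were not tested.

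The spleens were sampled as age-matched pairs, but which animals formed a pair was not given, so a fit over the true pairs was not made and the tests above ignore them. The replicate numbers were not taken as pairs. Deviations of same-numbered spleens correlated at -0.25, 0.12 and 0.23, and those of ovaries at 0.38, 0.21 and 0.07. With the replicate block, L2-fKO spleen 4, alone with its number, adds nothing to the difference, and *Ikzf2* was at -0.84 (adjusted p = 0.0287 by edgeR) and *Ikzf4* at 1.75 (0.0137). The block called 498 genes higher and 693 lower in the spleen. No paired analysis was possible for the interaction because the organs come from different animals except 1. The low reads of *Ikzf4* in the spleen and of *Ikzf3* in the ovary limit their precision.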
